A study of Caenorhabditis elegans with 4 samples.

Results

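X chromosome promoter peaks were the peaks of UNC-39 ChIP-seq whose summit lay on chromosome X between 1000 bp upstream and 200 bp downstream of the start of a protein-coding transcript (Ensembl gene models on WBcel235, the same assembly as ce11). The peaks were taken from the relaxed list that the authors made from all replicates together, which holds peaks and background as input for a reproducibility filter. Of its 12797 peaks, 664 met the rule, which is 5.19% (exact 95% interval 4.81 to 5.59, counting error over peaks only). They were 26.3% of the 2529 peaks on X, and the comparison classes were the other 1865 peaks on X and the 3142 promoter peaks of the autosomes. The choice used chromosome and position alone and no signal value.

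The material was whole L3 larvae of strain OP186, with the sexes pooled, at an age the labels give as unknown. Every sample carried unc-119(ed3) on chromosome III and the transgene wgIs186, which expresses UNC-39 with GFP-FLAG at its C-terminal end, so all 4 biological replicates belong to 1 group and no untreated or untagged group was analysed here. The labels name unc-39 as the antibody target and name a separate control experiment, which the authors used and which was not analysed here. Whole worms mix all tissues, so a peak found in few cells and weak occupancy in many cells cannot be told apart. Read counts are not part of a peak list, so the depth of each library is unknown.

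UNC-39 is a homeodomain transcription factor of the sine oculis family, whose members act with Eyes absent proteins in the development of muscle, sense organs and neurons. In C. elegans it is known for roles in mesodermal differentiation and in the migration of cells and axons. Chromosome X of this species is poor in genes of germ-line function, and in XX animals a dosage compensation complex binds along it and lowers its transcription. Nematode genes often lie close together, and divergent neighbours can share an upstream region.

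The 9 X promoter peaks that the authors' reproducibility filter kept are shown first because they are the strongest members by pooled signal. Each line gives the summit with 50 bases to either side on the plus strand of the RefSeq WBcel235 genome, in lower case. Capitals mark matches, on either strand, to 4 of the 7 motifs searched. These are TGATAC, a word bound by sine oculis proteins, the longer word GCGCAGGG, and a pair of words that can overlap, namely CGTCTC and also ACGCAG. No match lies in these windows to TCAGGTTTC with at most 1 mismatch, to the repeat GAGAGAGA or to the TATA-box word TATAAA.
ain-1: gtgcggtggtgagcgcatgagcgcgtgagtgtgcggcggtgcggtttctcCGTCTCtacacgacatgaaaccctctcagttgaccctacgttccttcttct
fbxb-58: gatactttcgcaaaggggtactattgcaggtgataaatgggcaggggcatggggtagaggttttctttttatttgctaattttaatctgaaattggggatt
ins-39: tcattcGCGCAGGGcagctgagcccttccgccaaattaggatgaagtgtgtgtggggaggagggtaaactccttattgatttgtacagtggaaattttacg
nspc-17: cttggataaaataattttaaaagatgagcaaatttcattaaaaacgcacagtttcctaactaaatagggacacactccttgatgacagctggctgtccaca
rpl-11.2: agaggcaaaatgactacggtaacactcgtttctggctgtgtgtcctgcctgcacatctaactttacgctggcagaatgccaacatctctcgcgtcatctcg
cebp-1: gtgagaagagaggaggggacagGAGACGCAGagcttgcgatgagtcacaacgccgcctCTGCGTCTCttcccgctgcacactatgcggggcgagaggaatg
sms-2: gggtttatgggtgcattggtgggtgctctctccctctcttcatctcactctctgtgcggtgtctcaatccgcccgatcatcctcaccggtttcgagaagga
puf-9: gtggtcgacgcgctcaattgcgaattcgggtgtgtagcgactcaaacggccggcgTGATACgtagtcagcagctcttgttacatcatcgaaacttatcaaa
T13C5.6: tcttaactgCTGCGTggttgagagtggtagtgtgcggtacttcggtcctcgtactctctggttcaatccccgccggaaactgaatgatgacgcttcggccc
The windows lie, in the same order, at chrX:16612440-16612540, chrX:1627113-1627213, chrX:1345050-1345150, chrX:14525785-14525885, chrX:2242946-2243046, chrX:1454547-1454647, chrX:949629-949729, chrX:5841295-5841395 and chrX:6207840-6207940. Base composition differed widely among them, from 35.6% GC at nspc-17 to 61.4% at cebp-1. The cebp-1 window holds GAGACGCAG on the plus strand and again, as CTGCGTCTC, on the other. GAGACGCAG is the overlap of ACGCAG with the reverse complement of CGTCTC, so its matches count for both shorter motifs. The ain-1 window holds CGTCTC alone, the T13C5.6 window ACGCAG alone, the puf-9 window TGATAC and the ins-39 window GCGCAGGG. The windows at fbxb-58, nspc-17, rpl-11.2 and sms-2 hold no match to any motif searched.

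The filtered list held 9 of 664 X promoter peaks, or 1.36% (exact 95% interval 0.622 to 2.56), against 0.673% of all nuclear pooled peaks. The share was 0.923% of autosomal promoter peaks and 1.13% of X peaks outside promoters, both inside the interval of the X promoter share. The 500 strongest nuclear pooled peaks held 48 members, or 7.23% (5.38 to 9.47), against 3.91% of all nuclear pooled peaks. The share was 4.84% of autosomal promoter peaks (4.11 to 5.65), whose interval overlaps that of the members, and 5.36% of X peaks outside promoters (4.38 to 6.48). The filtered list was made from the pooled and the replicate lists and is no independent evidence for them. The weakest member inside it had a pooled signal of 42.5 (T13C5.6) and the strongest outside 41.6 (sma-9). Signal here and below is the authors' own value per peak and was read only as an order of peaks inside 1 list.

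The strongest X promoter peak lay 961 bp upstream of ain-1, which encodes a GW182-type protein of the microRNA silencing machinery. Its pooled signal was 71.1, rank 8 of the nuclear peaks, and the overlapping replicate peaks ranked 26, 157, 1154 and 40 in replicates 1, 2, 3 and 4. Replicate 3 was the low one. A peak 974 bp upstream of fbxb-58, an F-box family gene, followed with a signal of 56.6. It ranked 86, 798, 55 and 181 in the 4 replicates and was the only X promoter peak among the 1000 strongest of every one, which is 0.151% of members against 0.172% of all nuclear pooled peaks. The ins-39 peak, 679 bp upstream of an insulin-like peptide gene, had a signal of 53.2 and ranks of 91, 1649, 63 and 291. Here replicate 2 was the low one.

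The nspc-17 peak, at a gene of the nematode-specific peptide family c, lay 654 bp upstream with a signal of 46.7. Its ranks were 393, 206, 9276 and 36, so replicate 3 placed it far below the others. The rpl-11.2 peak, 378 bp upstream of a gene for a large-subunit ribosomal protein, had a signal of 45.7 and ranks of 6791, 4143, 453 and 280. Replicates 1 and 2 ranked it low and replicates 3 and 4 high. The cebp-1 peak, 729 bp upstream of a C/EBP-type bZIP factor with a role in axon regeneration, had a signal of 44.01 and ranks of 18521, 717, 45 and 169. Replicate 1 alone ranked it low.

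The sms-2 peak, 796 bp upstream of a sphingomyelin synthase gene, had a signal of 43.0. It ranked 60, 902 and 304 in replicates 1, 2 and 4, and no peak of replicate 3 overlapped it. The puf-9 peak, 247 bp upstream of a Pumilio-type RNA-binding protein gene, had a signal of 42.6 and ranks of 213, 19627, 313 and 675. Replicate 2 alone ranked it low. The T13C5.6 peak, 203 bp upstream of its start, ranked 5338, 449 and 1306 in replicates 1, 2 and 4 and had no overlap in replicate 3. All 9 summits lay upstream of the start, and 8 of the 9 peaks, all but fbxb-58, fell below rank 1000 or had no overlapping peak in at least 1 replicate.

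Just outside the filtered list were sma-9, a Schnurri-type regulator of BMP signalling, with a signal of 41.6, sor-3, needed for repression of Hox genes, with 41.5, myrf-2, of the myelin regulatory factor family, with 41.3, and ftt-2, a 14-3-3 protein gene, with 41.1. The ftt-2 peak ranked 106, 1238, 58 and 553, which is higher in most replicates than several peaks inside the list. The sma-9 peak ranked 143 in replicate 1 and 7661, 1760 and 7004 in replicates 2, 3 and 4. Further members among the 20 strongest lay at F09C8.2, at the collagen gene col-185, between C28G1.2 and the exocyst gene sec-15, at vha-12 (a V-ATPase subunit), sym-4, hrg-1 (a haem transporter) and eef-1A.2 (a translation elongation factor). The sor-3, col-185 and C28G1.2 and sec-15 peaks lay within 300 bp of a tRNA gene. At these 3 peaks 17.3%, 14.3% and 17.02% of the 36-base words occurred elsewhere in the genome, while 624 of the 664 members held no repeated 36-base word and none was made of repeated words over more than 50 percent of its length. What repeats or tRNA genes contribute to these signals was not tested.

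The sequence printed for T13C5.6 also holds a match to GGTTCNANNCC, the internal B box word of tRNA genes, a search chosen after that sequence was seen. Within 50 bp of the summit, on either strand, the word was found at 9 members, or 1.36%, at 0.732% of autosomal promoter peaks, at 1.29% of X peaks outside promoters and at 0.110% of all X promoters in windows of equal length. A tRNA gene lay within 300 bp of 7 of the 9, among them sor-3 and col-185. The other 2 were T13C5.6, where the annotation has the non-coding RNA gene C14F11.14 at the summit and no tRNA gene within 300 bp, and the weak peak at F59C12.4. The T13C5.6 peak was therefore kept when peaks beside annotated small RNA genes were left out. The word is a description of the sequence and was not tested for a part in the signal.

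**Figure D1:**
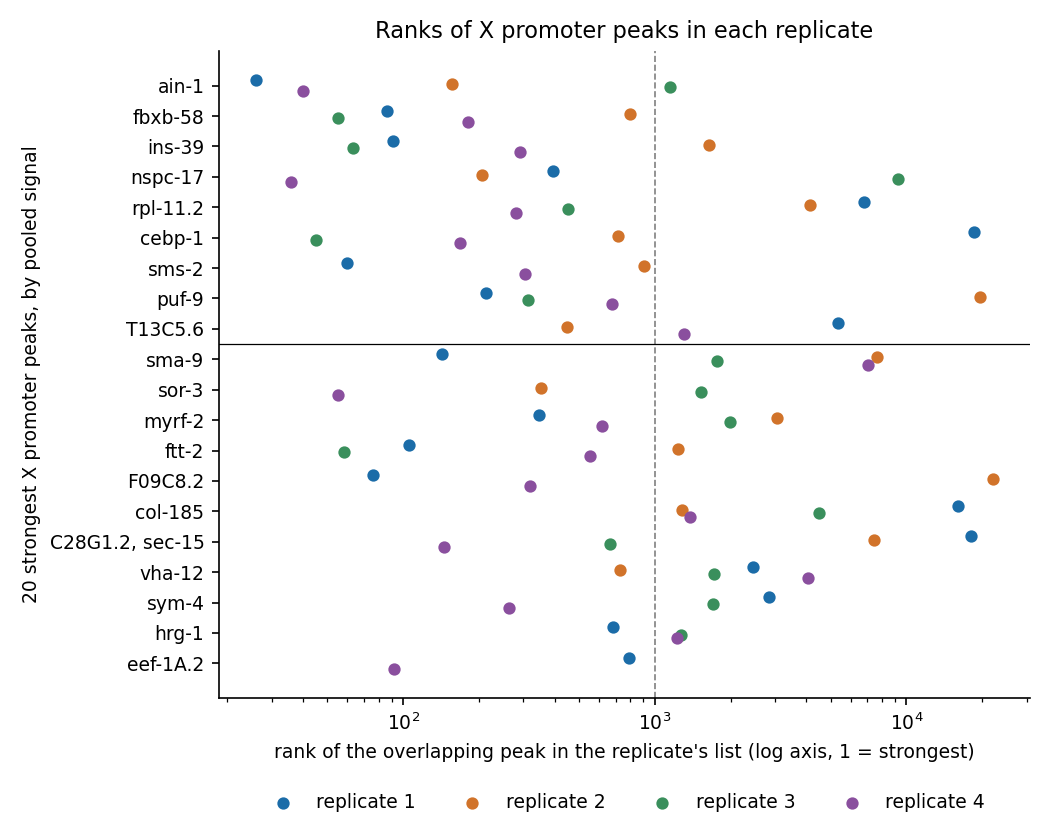
Rank of the overlapping peak in each replicate's list (log axis, 1 = strongest) for the 20 X promoter peaks of highest pooled signal, in that order. Points left of the dashed line are among the 1000 strongest of that replicate, a missing point means that no peak of that replicate overlapped, and peaks above the black line are in the filtered list. Only fbxb-58 has all 4 points left of the dashed line, while cebp-1, puf-9, F09C8.2, col-185 and the C28G1.2 and sec-15 peak each have 1 replicate beyond rank 10000.

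Support across replicates was uneven over the whole set. Of the 664 members, 2 were overlapped by a peak of no replicate, 118 by 1 replicate, 311 by 2, 171 by 3 and 62 by all 4 (at least 1 bp). The 62 were 9.34% of members (exact 95% interval 7.23 to 11.8) against 5.63% of all nuclear pooled peaks, with 7.70% for autosomal promoter peaks and 6.17% for X peaks outside promoters. The interval of autosomal promoter peaks, 6.79 to 8.69, overlaps that of the members. The 4 lists differed in length, with 30000, 30000, 13225 and 29529 peaks, and overlapped 69.6%, 74.4%, 28.2% and 53.9% of members while covering 12.6%, 12.8%, 4.99% and 10.5% of chromosome X. The short list is that of replicate 3, whose highest q-value was 0.0422 where the other lists ran to 0.741 or more.

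With each list held to its 1000 strongest peaks, 503 members were overlapped in no replicate, 22 in 2, 9 in 3 and 1 in 4, and the rest in 1 replicate. The 10 members in 3 or 4 replicates were 1.51% of all members (exact interval 0.724 to 2.75), against 0.658% of nuclear pooled peaks. The share was 0.859% of autosomal promoter peaks and 0.751% of X peaks outside promoters, both inside the interval of the members. These 10 members lay at 8 genes: ain-1, fbxb-58, ins-39, nspc-17, cebp-1, sms-2, puf-9 and ftt-2. The ain-1 and nspc-17 loci count double there, because a second pooled peak overlaps the first and meets the same replicate peaks. Among pairs of replicates, Spearman's rho of signal over the members found in both was 0.14 on average, from 0.04 to 0.31 over 6 pairs, and 0.09 for autosomal promoter peaks. These correlations are descriptions across peaks of one genome. Of the 50 strongest X promoter peaks of a replicate, 4% to 22% were shared with the 50 strongest of another replicate.

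Each replicate also named different leading X promoters in its own list. The strongest in replicate 1 was ain-1, in replicate 2 sto-5, in replicate 3 cebp-1 and in replicate 4 nspc-17. The peaks at sto-5 in replicate 2 lay 122 and 160 bp downstream of a start and were not among the 20 strongest of the pooled list. Replicates 1 and 4 both had ain-1 among their 5 leading X promoter peaks, and no other gene appeared in the leading 5 of more than 1 replicate.

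The deposited q-values were weak for nearly all members. The lowest was 0.0145, at ain-1, and the median was 0.923. A q-value of at most 0.05 was reached by 3 members, at ain-1, ins-39 and nspc-17, which is 0.452% of members against 0.352% of all nuclear pooled peaks. The share was higher than that of the members in both comparison classes, at 0.605% of autosomal promoter peaks and 0.697% of X peaks outside promoters. The pooled signal of members ran from 16.4 to 71.1 with a median of 20.05 and quartiles of 18.03 and 23.2. Their median percentile among nuclear pooled peaks was 55.2, against 52.3 for autosomal promoter peaks and 49.6 for X peaks outside promoters. Members were spread over the list, with quartiles of percentile at 30.1 and 78.3.

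The comparisons that follow use the 4 replicates as the unit and an exact two-sided sign-flip permutation test, whose smallest possible p with 4 replicates is 0.13. No difference can therefore pass 0.05, and Benjamini-Hochberg adjustment over the 7 comparisons gives 0.175 where the exact p is 0.13. The spread between replicates is given beside each value.

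X promoter peaks were overlapped by the 1000 strongest peaks of a replicate at 8.89%, 7.68%, 5.27% and 8.89% in replicates 1 to 4, a mean of 7.68% ± 1.70 (SD, n = 4). Autosomal promoter peaks gave 7.03% ± 0.303. The difference, X minus autosomes, was 0.647 percentage points ± 1.44, positive in 3 of 4 replicates and −1.44 in replicate 3 (exact permutation p = 0.375, adjusted 0.375), which is smaller than the spread between replicates. With promoter windows of 500 bp upstream the difference was −0.684 points. Against X peaks outside promoters, at 5.87% ± 1.87, the difference was 1.81 points ± 1.42 and positive in 4 of 4 replicates (exact permutation p = 0.13). It was 0.656 points with windows of 500 bp upstream (exact permutation p = 0.5), and 1.15 without replicate 4.

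Ranked within each replicate's own nuclear list, X promoter peaks had a mean signal percentile of 52.5 ± 0.985 (n = 4), autosomal promoter peaks 51.5 ± 1.16 and X peaks outside promoters 50.1 ± 0.545. The X promoter peaks stood 0.986 percentile points ± 0.220 above autosomal promoter peaks and 2.34 ± 1.51 above X peaks outside promoters. Both differences were positive in 4 of 4 replicates (exact permutation p = 0.13 for each), and both are small beside the width of a list, which spans all percentiles. With the 5000 strongest peaks of each list the first was 1.93. The second was larger in replicates 3 and 4, at 3.87 and 3.38, than in replicates 1 and 2, at 1.30 and 0.816.

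**Figure D2:**
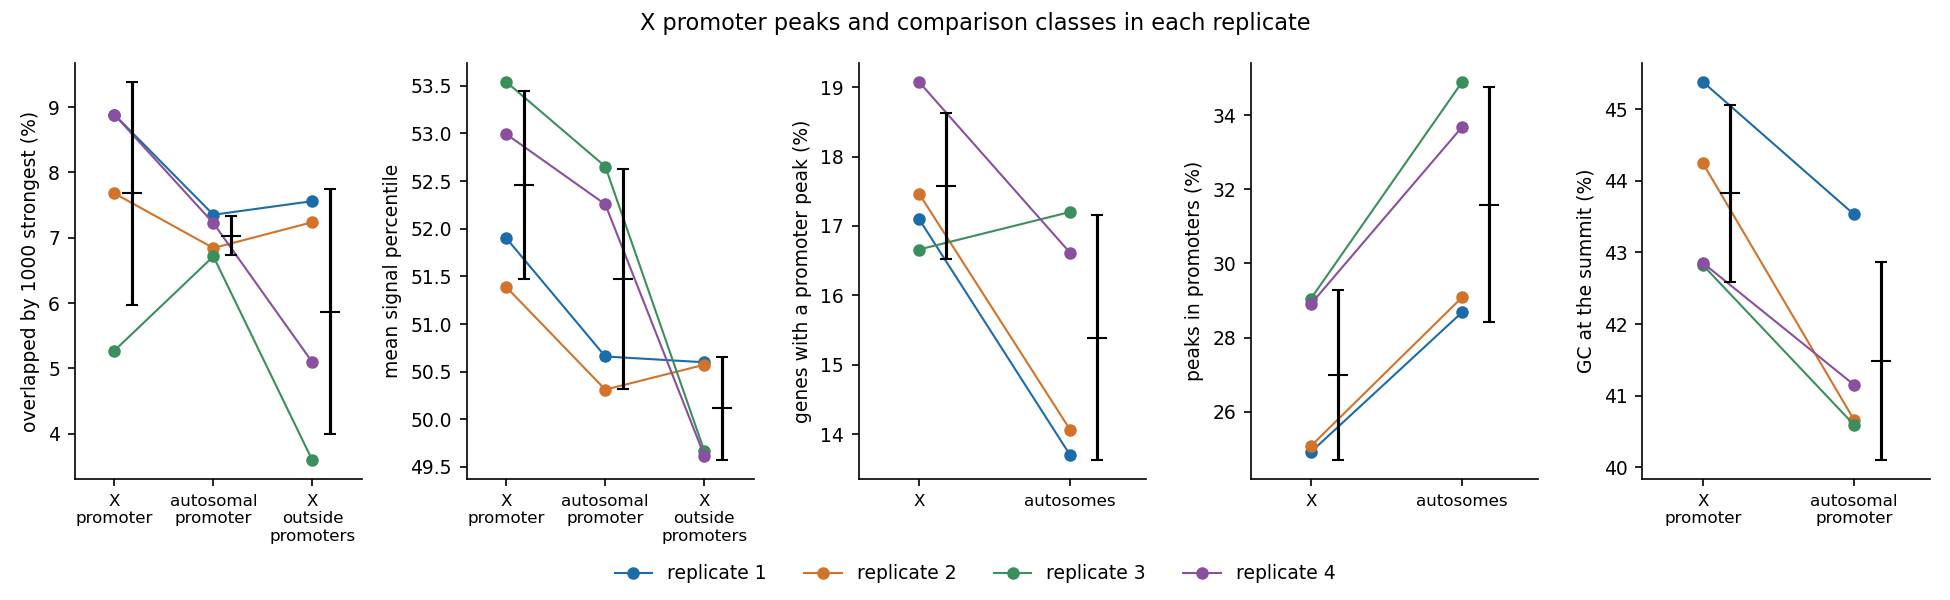
Measures per replicate, from left to right the share of pooled peaks overlapped by a replicate's 1000 strongest peaks (%), mean signal percentile, share of protein-coding genes with a promoter peak (%), share of peaks in promoters (%) and GC content at the summit (%). Coloured points joined by lines are the 4 replicates, black marks are mean ± SD, and the axes do not start at 0. Lines fall from X promoter to autosomal promoter in all 4 replicates for percentile and GC, rise in all 4 for the share of peaks in promoters, and run the other way in replicate 3 for the other measures.

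Per gene, the pooled list put a promoter peak at 611 of 2731 protein-coding genes on X, or 22.4%, and at 3207 of 17242 on the autosomes, or 18.6%. In the 10000 strongest nuclear peaks of each replicate the shares on X were 17.1%, 17.5%, 16.7% and 19.1%, a mean of 17.6% ± 1.05 (n = 4), and on the autosomes 15.4% ± 1.77. The difference was 2.18 points ± 1.87, positive in 3 of 4 replicates and −0.542 in replicate 3 (exact permutation p = 0.25, adjusted 0.292). It was 1.41 points with the 5000 strongest peaks and 3.50 with whole lists. Per peak the order was the other way. Promoter peaks were 26.99% ± 2.30 of the peaks on X and 31.6% ± 3.16 of those on the autosomes, a difference of −4.60 points ± 0.933, negative in 4 of 4 replicates (exact permutation p = 0.13). It was −2.83 points with windows of 500 bp and −7.73 with windows of 2000 bp.

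Promoter windows themselves cover 21.8% of X and 27.1% of the autosomes, so the share of peaks in promoters was also set against window length, a measure added after the values were seen. Pooled peaks lay at 172 per Mb inside windows and 135 per Mb outside them on X, and at 141 and 118 per Mb on the autosomes. In the replicates the ratio of inside to outside was 1.33 ± 0.155 on X and 1.25 ± 0.183 on the autosomes, higher on X in 4 of 4 replicates by 0.0766 ± 0.0371 (exact permutation p = 0.13, adjusted 0.175 over 7 added comparisons). In replicates 1 to 4 it was 1.19, 1.20, 1.47 and 1.46 on X and 1.08, 1.11, 1.45 and 1.37 on the autosomes. The difference was smallest in replicate 3, at 0.0219.

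Summits of X promoter peaks lay near the start more often than far from it, as did those of autosomal promoter peaks. Distances were taken to the nearest start whose window held the summit, which favours short ones, and no background of positions was computed. The median was 237.5 bp upstream (quartiles 567 and 30 bp), against 291 bp (639 and 47) for autosomal promoter peaks. The 200 bp just upstream of the start held 23.8% of the members and the 200 bp downstream 21.2%, while the windows 800 to 1000 and 600 to 800 bp upstream held 11.6% and 10.8%. The same bins held 21.6%, 20.1%, 13.9% and 13.6% of autosomal promoter peaks. Among the members above the upper quartile of signal the median was 263.5 bp upstream, and the same bins held 24.1%, 16.3%, 7.83% and 16.3%. In the replicates' own lists the median X promoter summit lay 290, 277, 266 and 310 bp upstream.

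**Figure D3:**
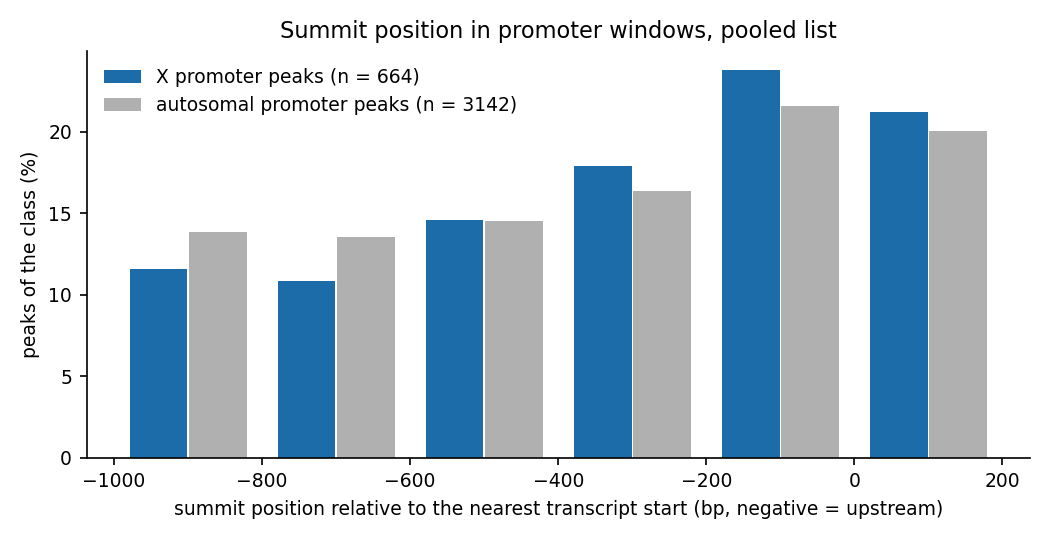
Share of promoter peaks (%) in 200 bp bins of summit position relative to the nearest protein-coding transcript start (bp, negative is upstream), for 664 X and 3142 autosomal promoter peaks of the pooled list. The bin just upstream of the start is the fullest in both classes, at 23.8% on X and 21.6% on the autosomes.

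Most members belonged to a single gene. Of the 664, 629 lay in the promoter window of 1 gene, 34 of 2 genes and 1 of 3, so 5.27% were shared, against 14.04% of autosomal promoter peaks. In turn 77 X genes had 2 or more members, up to 4 at Y15E3A.5, at the filamin gene fln-2 and at lfi-1. Such members share a promoter and are not separate observations, and 55 members overlapped another pooled peak. A tRNA, snoRNA or miRNA gene lay within 300 bp of 28 members (22, 3 and 3), which is 4.22%, against 3.31% of autosomal promoter peaks and 4.50% of X peaks outside promoters.

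Members were spread along the chromosome. In 6 equal parts of X, between 19.9% and 25.1% of protein-coding genes had a member. The filtered list was less even, with 5 of its 9 members (sms-2, ins-39, cebp-1, fbxb-58 and rpl-11.2) in the first part, chrX:1-2953157, which holds 414 of the 2731 genes. In the replicates' 10000 strongest peaks that part had promoter peaks at 16.1% ± 0.312 of its genes (n = 4), and the last part at 19.9% ± 2.58. The median pooled percentile of members was highest in the last part, at 62.996, and between 51.996 and 58.8 in the others.

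The bases within 50 bp of the summit were GC-rich relative to their surroundings, in members and in the other classes of pooled peaks alike. Members had a mean GC content of 42.2% ± 8.85 (SD over 664 peaks), against 36.01% in windows of the same length 300 bp to either side. The mean was 35.4% over windows of the same length 237 bp upstream of all X protein-coding genes and 35.2% over chromosome X. Autosomal promoter peaks of the pooled list had 40.99% at the summit and 36.5% in the flanks. X peaks outside promoters had 40.6% and 36.2%, and autosomal peaks outside promoters 41.1% and 37.4%. In each replicate's own X promoter peaks among its 1000 strongest, GC at the summit was 45.4%, 44.2%, 42.8% and 42.9%, a mean of 43.8% ± 1.23 (n = 4). Autosomal promoter peaks chosen the same way had 41.5% ± 1.39. The difference was 2.34 points ± 0.857, positive in 4 of 4 replicates (exact permutation p = 0.13), although chromosome X as a whole had a slightly lower GC content than the autosomes (35.2% and 35.5%). With windows of 2000 bp the difference was 1.32 points.

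GC content moved with signal. With the members in 4 groups of equal size, from the strongest to the weakest by pooled signal, it was 44.6%, 42.8%, 41.1% and 40.2%. In the replicates' own lists, X promoter peaks among the 1000 strongest exceeded the remaining X promoter peaks by 5.14 points ± 0.197 in GC content, in 4 of 4 replicates (exact permutation p = 0.13, an added comparison). The part of base composition in the signal was not tested. The share of members overlapped by a replicate's 1000 strongest peaks also fell over these groups, at 17.9% ± 5.42, 5.87% ± 2.93, 4.07% ± 1.34 and 2.86% ± 0.301 (n = 4). The pooled list was made from these same replicates.

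**Figure D4:**
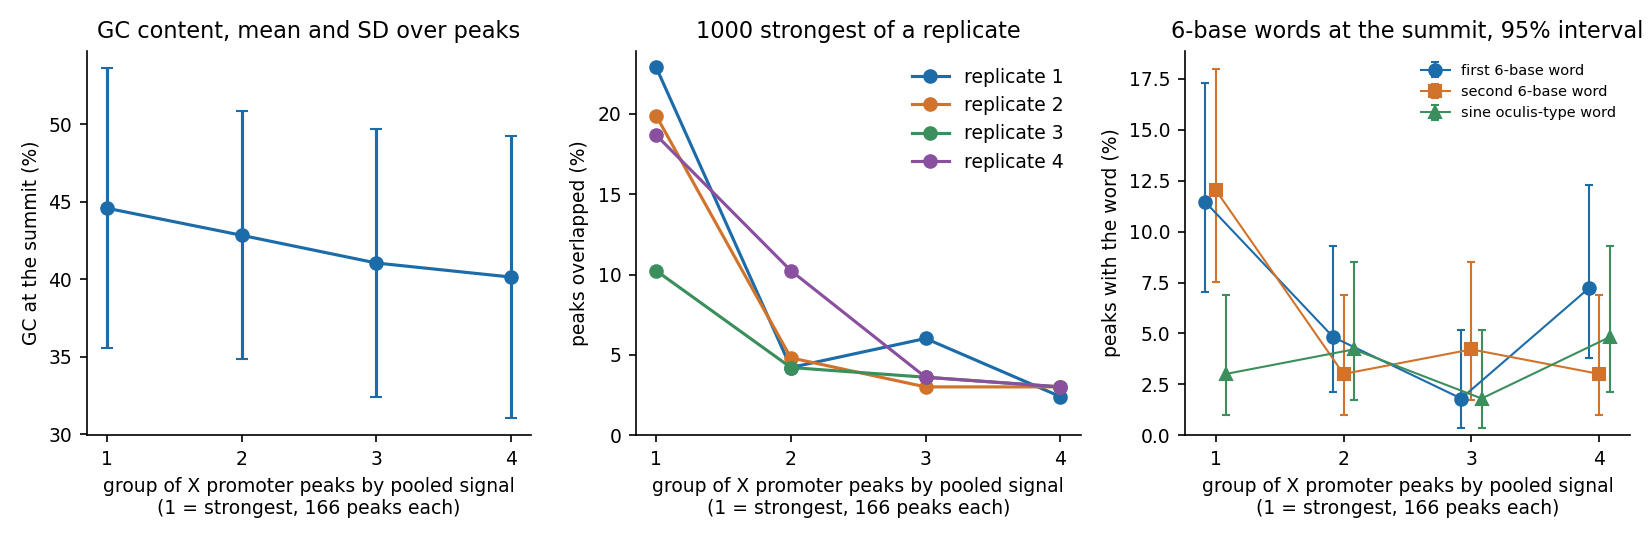
X promoter peaks in 4 groups of equal size by pooled signal (1 = strongest): mean GC content ± SD over peaks (left, %), share overlapped by the 1000 strongest peaks of each replicate (middle, %) and share with a match within 50 bp of the summit (right, %, exact 95% interval) to CGTCTC (circles, first word), ACGCAG (squares, second word) and TGATAC (triangles, sine oculis-type word). GC falls from 44.6% to 40.2%, and both CGTCTC and ACGCAG are most frequent in the strongest group while TGATAC is not. The GC axis does not start at 0.

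Motifs were searched within 50 bp of the summit on both strands, and each share is set beside that of all 2731 X promoters in windows of equal length. The motifs were chosen with earlier results of these data known. The words bound by sine oculis proteins in other animals, TGATAC and the MEF3 word TCAGGTTTC, had shares at members below those at all X promoters, which lie inside the intervals of the members. TGATAC was found at 23 members, or 3.46% (exact 95% interval 2.21 to 5.15), and at 4.21% of X promoters, and TCAGGTTTC with at most 1 mismatch at 2.86% (1.73 to 4.43) and 3.22%. TATAAA, the TATA-box word, was found at 6.93% of members and 13.1% of X promoters. Its share was 12.2% in the flanking windows of members, 7.92% at autosomal promoter peaks and 7.77% at X peaks outside promoters. The part of base composition in this was not tested. GAGAGAGA was found at 1.96% and 1.35%. GCGCAGGG was found at 2 members, ins-39 and the peak between R04E5.9 and cnnm-2, which is 0.301% against 0.110% of X promoters.

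CGTCTC and ACGCAG were found more often. CGTCTC occurred at 42 members, or 6.33% (4.596 to 8.45), and ACGCAG at 37, or 5.57% (3.95 to 7.60), against 3.95% and 2.64% of X promoters. Autosomal promoter peaks had 6.81% and 5.73%, inside the X intervals, and X peaks outside promoters 4.02% and 3.32%. From the strongest to the weakest of the 4 signal groups the shares were 11.4%, 4.82%, 1.81% and 7.23% for CGTCTC and 12.05%, 3.01%, 4.22% and 3.01% for ACGCAG. The joined word GAGACGCAG was found at 11 members, or 1.66%, at 2.26% of autosomal promoter peaks and at 0.590% of X peaks outside promoters. The 11 lay at cebp-1, where it occurred 2 times, ain-1 (the second, weaker ain-1 peak), ceh-41, calu-1, rund-1, coel-1, epn-1, T20F7.1, hst-2, T14F9.2 and lsy-2.

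In the replicates' own lists, a comparison added after the values were seen, either of the 2 shorter words lay at 12 of 66, 7 of 54, 9 of 60 and 14 of 82 X promoter peaks among the 1000 strongest. That is 18.2%, 12.96%, 15% and 17.1%, a mean of 15.8% ± 2.31 (n = 4), against 6.49% ± 1.04 of the X promoter peaks further down the same lists. The strongest peaks were higher in 4 of 4 replicates, by 9.32 points ± 1.92 (exact permutation p = 0.13, adjusted 0.175). For autosomal promoter peaks the same shares were 13.2% ± 4.45 and 6.57% ± 0.436. TGATAC showed no such order on X, at 3.34% ± 2.73 and 3.29% ± 0.643, higher among the strongest in 1 of 4 replicates (exact permutation p = 1.00). Both shorter words are rich in G and C, as were the strongest peaks, and the share due to base composition was not tested. Because the words were chosen with earlier results of these data known, their shares here are no independent evidence.

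Of the X-linked genes in 14 gene lists, the share with a member is set beside 22.4% for all X protein-coding genes. These are counts of the pooled relaxed list and carry no test, and the lists are short selections of unequal size that can overlap and do not hold every gene of their kind. The highest shares among lists of 10 or more genes were 7 of 14 for energy metabolism, 7 of 14 for signalling ligands and receptors, 10 of 23 for neuronal synaptic and axonal genes and 22 of 57 for transcription factors and chromatin regulators other than homeobox genes. The 22 include lin-18, a Wnt receptor gene of the Ryk type that also stands in the signalling list. The lowest were 5 of 35 for neuropeptides, 4 of 27 for homeobox genes and 9 of 54 for cuticle and epidermis genes. Intestine and yolk genes had 10 of 46, channels and neurotransmitter receptors 14 of 77, muscle and mesoderm genes 5 of 18, and heat shock and proteostasis genes 4 of 11.

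Homeobox genes with a member were ceh-41, ceh-39, ceh-21 and vab-3, the Pax-6 gene. The first 3 are neighbouring ONECUT-type genes, whose peaks lay between chrX:1849341 and chrX:1856618. The ceh-41 peak was the strongest of them, at percentile 94.8 of nuclear pooled peaks, with ranks of 7423 and 10927 in replicates 1 and 2 and no overlap in replicates 3 and 4. The others stood at 10.8 for ceh-39, 1.70 for ceh-21, in a peak shared with T26C11.9, and 37.6 for vab-3. The list median was 24.2, against 61.4 over the 611 X genes. The ceh-39 gene is an X signal element in sex determination, as is fox-1, an RNA-binding protein gene whose peak stood at percentile 47.9. They were the 2 of 6 genes with a member in the list on X signal and dosage compensation.

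Within the list of other transcription factors and chromatin regulators, sma-9 (percentile 99.3), the nuclear hormone receptor genes nhr-40 (97.3) and nhr-32 (96.3) and the heterochronic gene lin-14 (91.2) led, and the list median was 71.8. That list does not hold cebp-1 or myrf-2, described above. The lin-14 peak, 318 bp upstream, ranked 6947, 2817, 1132 and 1465, so it was found in every replicate and among the 1000 strongest of none. Muscle and mesoderm genes with a member were led by the actin gene act-4 (percentile 92.0), unc-115, an actin-binding protein gene (79.1), the pharyngeal myosin heavy chain gene myo-2 (76.8) and the potassium channel gene unc-58 (43.1). The myo-2 peak lay 87 bp upstream and ranked 10983, 927 and 19336 in replicates 1, 2 and 4, with no overlap in replicate 3. No muscle gene was in the filtered list, which held only 9 of the 2731 protein-coding genes on X. Of the 14 gene lists, only those of neuropeptides and ribosomal proteins had a gene there.

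Among neuronal genes, the stomatin gene unc-1 (percentile 91.1), osm-11, a secreted Notch co-ligand gene (88.6), the innexin gene unc-9 (87.8) and unc-115 led. The unc-9 peak ranked 2600 and 392 in replicates 1 and 2 and was absent from replicates 3 and 4. Neuropeptide genes other than ins-39 were weak, with nlp-101 at percentile 65.6, nlp-22 at 46.3, flp-11 at 45.97 and flp-18 at 3.52. The flp-18 peak was nonetheless at rank 224 in replicate 1, the only replicate with an overlap. The neuropeptide receptor gene npr-9 (96.5) led the list of channels and receptors and ranked 2586, 1281 and 941 in replicates 1, 2 and 4. Next within that list were the potassium channel genes kvs-1 (72.0) and slo-2 (61.8) and the dopamine receptor gene dop-6 (59.98).

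Cuticle and epidermis genes were led by the collagen gene col-185 (percentile 98.7), beside a tRNA gene, then nas-10, an astacin protease gene (86.6), col-168 (83.2) and col-166 (71.1). In the intestine and yolk list the saposin-like gene spp-14 (96.4), the aspartyl protease gene asp-14 (80.2), the intermediate filament gene ifc-2 (71.8) and the transthyretin-related gene ttr-6 (51.4) led. Of the ribosomal protein genes on X, rpl-11.2 had a member, 1 of 2. The list of 4 translation and splicing genes had 3 with a member, namely eef-1A.2 at percentile 98.2, rnp-9 at 28.5 and ife-4 at 21.3. The eef-1A.2 peak ranked 788 and 92 in replicates 1 and 4 and was absent from replicates 2 and 3.

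Energy genes were led by vha-12 (percentile 98.6), the succinate dehydrogenase gene sdha-1 (91.6), the isocitrate dehydrogenase gene idh-2 (72.5) and vha-20 (69.1). The vha-12 peak ranked 2467, 724, 1717 and 4056, and the sdha-1 peak 2642, 16700, 5103 and 16690. A snoRNA gene lay within 300 bp of the sdha-1 summit. Heat shock and proteostasis genes were led by dnj-7, a DnaJ-type co-chaperone gene (89.2), the protein disulphide isomerase gene pdi-2 (71.9), hsp-25 (42.5) and the ubiquitin-conjugating enzyme gene ubc-23 (29.8). Signalling genes were led by mom-1, the Porcupine gene of Wnt secretion (96.8), in a peak shared with lev-9, osm-11, the FGF gene egl-17 (82.9) and the discoidin domain receptor gene ddr-1 (63.3). Ranks at mom-1 were 16234, 3281, 1217 and 1799, and the egl-17 summit lay 176 bp downstream of the start.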

How the data were processed

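ChIP-seq of GFP-FLAG-tagged UNC-39 was deposited as narrowPeak lists for 4 biological replicates, for their pool and after a reproducibility (IDR) filter. Per the deposited README, relaxed lists hold peaks and background as input for IDR and were made by the authors with a control, on ce11 and ce10; only ce11 lists were used. For the aligner, peak caller and IDR threshold, nothing is given in the sources used. Ranks rest on the deposited signal per peak. Deposited q-values were taken to be −log10 values, the narrowPeak convention, and the deposited summit offset gave each summit. No list has a read count, so depth is unknown.

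Ranks "in a replicate's list" count all its peaks, mitochondrial ones included; percentiles are among nuclear peaks. Overlap meant at least 1 bp. Coordinates matched the reference, with 0 peaks beyond chromosome ends. Differences over replicates were tested with an exact two-sided sign-flip permutation test, intervals are Clopper-Pearson at 95%, and adjustment is Benjamini-Hochberg. The functions were tested on simulated data. Python 3.11.15, numpy 2.4.6, pandas 2.3.3 and scipy 1.17.1 were used. Named genes are those of the 20 strongest members, of members in the filtered list, and up to 4 per gene list by signal; genes at GCGCAGGG, the joined motif or the tRNA word, of the most members per gene and of each replicate's leading peaks were named after their values were seen. Members, motifs and lists were chosen with earlier results of these data known. Alternatives were another promoter window, list length, overlap rule and sequence length, leaving out a replicate, and, added after seeing the data, leaving out peaks within 300 bp of small RNA genes. The counts of GAGACGCAG and of repeated 36-base words were also added then. There were 0 other per-sample columns. Lists on ce10 were not analysed here.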

Additional observations from a re-analysis of the deposited data

Results flagged for a closer look

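Among the values given per replicate, 69 sets of 4 values were examined for a replicate whose gap to its nearest neighbour was, as a part of the set's range, above Dixon's 95% critical value, and 7 stood apart. Chance gives about 1 in 20 such sets, and the sets share lists and are not independent. They were widened to all values per replicate after the data were seen. Replicate 3 stood low in the length of its list, at 13225 peaks, in its own X promoter peaks, at 644, and in the part of those below its 1000 strongest peaks, at 584. Replicate 4 stood high in X promoter peaks among its 10000 strongest nuclear peaks, at 549, which is 142 per Mb of X promoter window. In the share of members overlapped by the 1000 strongest peaks, replicate 4 stood high in the second of the 4 signal groups, at 10.2%, and replicate 1 low in the weakest group, at 2.41%. The other replicates were tied at 3.01% in that weakest group of 166 members, so a gap of any size would be flagged there.

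For the named members with a rank in all 4 replicates, 18 sets of 4 ranks were examined and 7 had 1 replicate far below the others. Replicate 3 ranked ain-1 at 1154 and nspc-17 at 9276. Replicate 2 ranked fbxb-58 at 798, ins-39 at 1649 and puf-9 at 19627. Replicate 1 ranked cebp-1 at 18521 and the peak shared by lev-9 and mom-1 at 16234. The replicate that stood apart was thus not the same one from member to member. What sets these ranks was not tested.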

How the results depend on the processing

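Of 59 alternative settings of the 7 tested differences, 58 kept the direction. The exception was the top-1000 share against autosomal promoter peaks, which was −0.684 points with a window of 500 bp upstream; its other settings gave 0.188 to 1.60, and leaving out a replicate 0.309 to 1.34, highest without replicate 3. A difference of the same sign in all 4 replicates cannot change direction when 1 is left out, so those settings are no support. Of the 7 differences, only the top-1000 share against autosomal promoter peaks and the share of genes with a promoter peak had mixed signs. No setting could pass 0.05, since 4 replicates allow an exact p of 0.13 and 3 allow 0.25. The 664 members became 1006 with a window of 2000 bp and 3 at a q-value of at most 0.05. The 9 members in the filtered list became 3 with a window of 500 bp and 2 among its stronger peaks by signal (upper 50%), while 48 members were among the 500 strongest nuclear pooled peaks. The single member among the 1000 strongest of all 4 replicates became 0 with a window of 500 bp, 0 with the 500 strongest, 5 with the 2000 strongest and 0 when the overlap had to span 50% of the pooled peak, and 1 to 6 when a replicate was left out, highest without replicate 3. Other differences moved by over 1.5 times and kept their direction. The top-1000 share against X peaks outside promoters was 0.656 with a window of 500 bp, 1.02 with 2000 bp, 1.07 with the 500 strongest, 2.72 with the 2000 strongest and 1.15 without replicate 4. The percentile difference from autosomal promoter peaks was 1.93 with the 5000 strongest, the difference in share of genes 1.41 with the 5000 strongest and 3.50 with whole lists, the difference in share of peaks in promoters −2.83 with 500 bp and −7.73 with 2000 bp, and the GC difference 1.32 with 2000 bp. The causes were not tested. Leaving out peaks beside small RNA genes, a setting chosen after seeing the data, left 9 members in the filtered list. No paired analysis was possible because all samples form 1 group, so replicates of different groups cannot be matched; the differences tested are taken within each replicate. Peak lists without counts limit every comparison to ranks and overlaps, and the read depth behind replicate 3's shorter list is unknown.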
